A study of Homo sapiens with 6 samples.

Results

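The keratin family was examined in UMUC3-c31 cells, whose name refers to UMUC3, a cell line from a human bladder carcinoma, after treatment with 10 nM R1881, a synthetic androgen, or with ethanol vehicle. Before treatment, both groups were kept for 24 h in serum that charcoal had stripped of steroids. Treatment lasted 24 h, and total RNA of 3 samples per group, given as biological replicates in the design text, was hybridised to 1 Affymetrix array each. The sources used here do not give how c31 was derived, nor whether it is 1 clone. A gene was taken as a member when the platform annotation gave a probe set that gene's symbol alone, the symbol was KRT followed by a digit, and RefSeq lists the gene as protein-coding. By this rule 47 of the 18129 genes measured were keratins, each represented by its probe set with the highest mean over the 6 arrays. They comprised 26 type I and 21 type II keratins, on 67 probe sets in all. KRT6A, KRT6B, KRT16, KRT17, KRT34, KRT81, KRT82 and KRT86 were not analysed here as members, since no probe set carried any of these symbols alone.

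Keratins are the intermediate filament proteins of epithelial cells. A type I and a type II keratin pair up as an obligate heterodimer, and the dimers assemble into filaments that run through the cytoplasm and attach to desmosomes and hemidesmosomes. Which pairs a cell makes depends on its epithelium and on its state of differentiation, so keratins serve widely as markers in pathology. In the bladder lining, basal cells carry KRT5, intermediate and luminal cells carry KRT7, KRT8, KRT18 and KRT19, and the superficial umbrella cells carry KRT20. In RefSeq the type II genes and KRT18 lie in a cluster on chromosome 12, where 22 of the members map, and the other type I genes lie on chromosome 17, where 25 map.

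The deposited values are log2 intensities after RMA, with array medians between 5.49 and 5.51, and carry no detection calls. A level for background was therefore taken from 415 genes of the olfactory receptor and keratin-associated protein families, most of which are silent outside their own tissues. The 90th percentile of their mean levels was 5.0 on the log2 scale, so 10% of these genes themselves lie above it. By that measure 11 of the 47 keratins (23.4%) were above background in at least 1 group, against 60.8% of all genes. This rests on the brightest set of each gene. For KRT4, KRT9 and KRT33A the second set lay below the line. KRT18, KRT10 and, with vehicle, KRT8 also exceeded the 99th percentile of 7.89. KRT6C, KRT33A, KRT15 and, with R1881 only, KRT32 exceeded the 95th percentile of 6.01, and KRT4, KRT7, KRT9 and KRT76 the 90th alone. The members nearest to the line were KRT76, KRT9 and KRT4 above it, with higher group means of 5.07, 5.09 and 5.78, and KRT5, KRT40 and KRT80 below it, at 4.77, 4.73 and 4.72. The position of the line mattered, since 23 keratins lay above the 75th percentile and 17 above the 90th percentile of the 333 olfactory receptor genes alone (4.46). The 82 keratin-associated protein genes alone had a 90th percentile of 6.97, which KRT18, KRT10 and KRT8 passed.

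**Figure D1:**
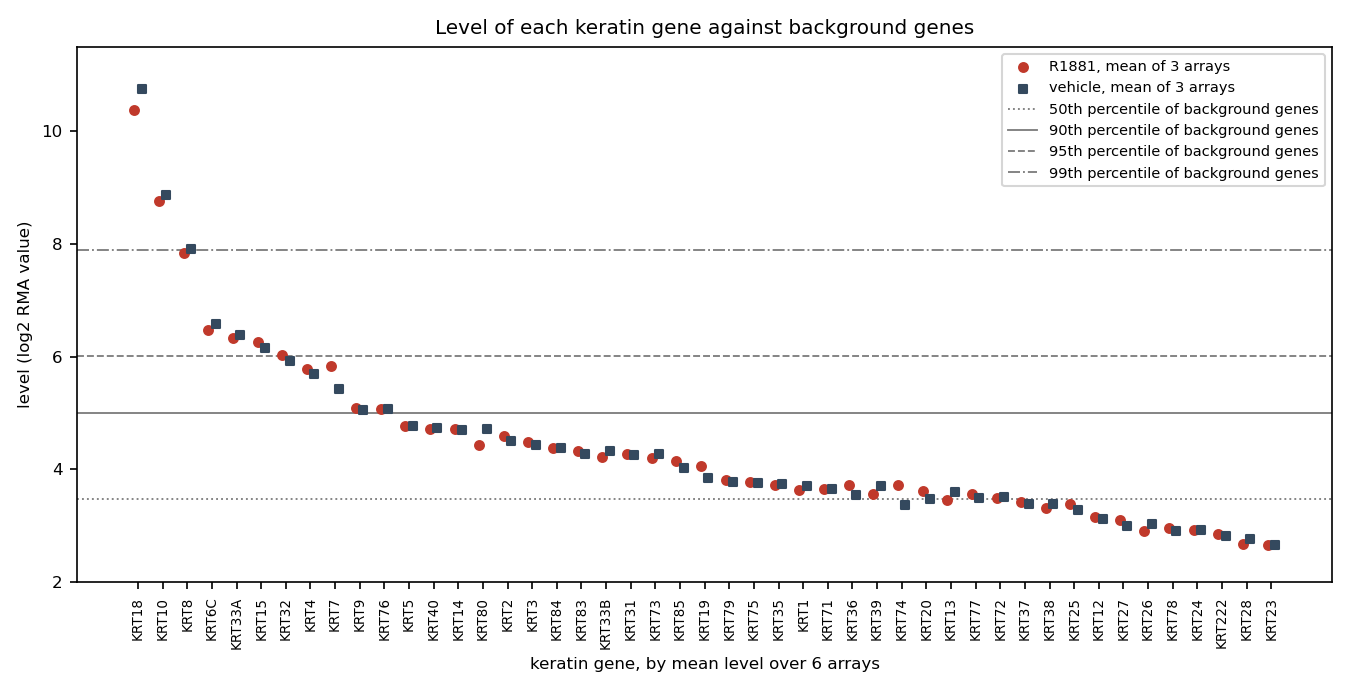
Mean level (log2 RMA value) of each of the 47 keratin genes with R1881 (circles) and vehicle (squares), 3 arrays each, ordered along the horizontal axis by level, with lines at 4 percentiles of 415 background genes. KRT18, KRT10 and KRT8 stand clear of the rest, and 36 keratins lie below the 90th percentile of 5.0.

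With R1881, KRT18 fell to 0.774 times its vehicle level and KRT7 rose 1.32-fold, while KRT8, KRT19 and KRT20, the other 3 of the 5 simple epithelial keratins, did not pass the test. Of all 47 members, 2 rose (KRT7 and KRT74), 1 fell (KRT18) and 44 did not pass the test (limma, Benjamini-Hochberg adjusted p under 0.05 over all genes). Of all genes tested 2.42% passed, 1.6% higher and 0.816% lower. Among genes above background 3.85% passed, beside KRT18 and KRT7 out of 11 keratins. The median change over the 47 keratins was 0.01 on the log2 scale, and that over all genes was 0.00. In bulk RNA, fewer cells making a keratin and less of its RNA per cell cannot be told apart.

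KRT18, the type I keratin of simple epithelia and the partner of KRT8, had log2 levels of 10.41, 10.33 and 10.39 in R1881 arrays, against 10.72, 10.79 and 10.73 in vehicle arrays. Every R1881 array lay below every vehicle array, and the gap exceeded the spread within either group. The change was -0.37 ± 0.05 (SE) on the log2 scale with an adjusted p of 0.00830 by limma, and the fold of 0.774 had a 95% interval of 0.718 to 0.834. The second KRT18 probe set gave log2 levels of 10.35, 10.27 and 10.29 with R1881, and 10.67, 10.63 and 10.61 with vehicle. Its change was -0.33 ± 0.05 (SE), and both sets passed when every probe set was tested (adjusted p of 0.0148 and 0.0210), where 1.61% of probe sets did. Both sets are of the kind marked x before "_at", whose probes can match related sequences, and KRT18 has many pseudogenes. The fall kept its call without any 1 of the 6 arrays, with adjusted p between 0.0294 and 0.0478. With a block for replicate number the call was lost (limma adjusted p = 0.0644), at the same change of -0.37. By size KRT18 ranked 78th of the 148 genes that fell.

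KRT8, the type II partner of KRT18 and its neighbour in the genome, had log2 levels of 7.88, 7.81 and 7.82 with R1881 and of 7.82, 8.02 and 7.90 with vehicle. These groups overlapped. The change was -0.08 ± 0.06 (SE; limma adjusted p = 0.610), and its 95% interval of -0.22 to 0.07 allows a fall or a small rise. KRT8 had 8 probe sets, all of the x kind. All 8 had a lower R1881 mean, with changes between -0.22 and -0.06 (median -0.09), the groups did not overlap on 3 of them, and none passed over all probe sets (limma, smallest adjusted p = 0.254, with 3 sets at an unadjusted p under 0.05). These sets read the same transcript and are not independent. Averaged over its sets KRT8 stood at -0.12 (adjusted p = 0.253).

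Whether KRT18 moved away from KRT8 was examined as their difference within each array, a comparison chosen after the values were seen. On the brightest sets, KRT18 minus KRT8 was 2.54 ± 0.03 with R1881 and 2.83 ± 0.07 with vehicle (SD, n = 3 each). The difference changed by -0.29 on the log2 scale. The groups did not overlap, with p = 0.10 by exact permutation (two-sided), the lowest value possible for 3 arrays per group. The result depended on the sets taken. With the second KRT18 set (change -0.33) and the KRT8 set that fell most (change -0.22), the groups overlapped. The level of the difference itself depends on the probes and has no meaning between genes. EIF4B, the protein-coding gene on the other side of KRT18, had a mean log2 level of 12.26 in both groups.

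**Figure D2:**
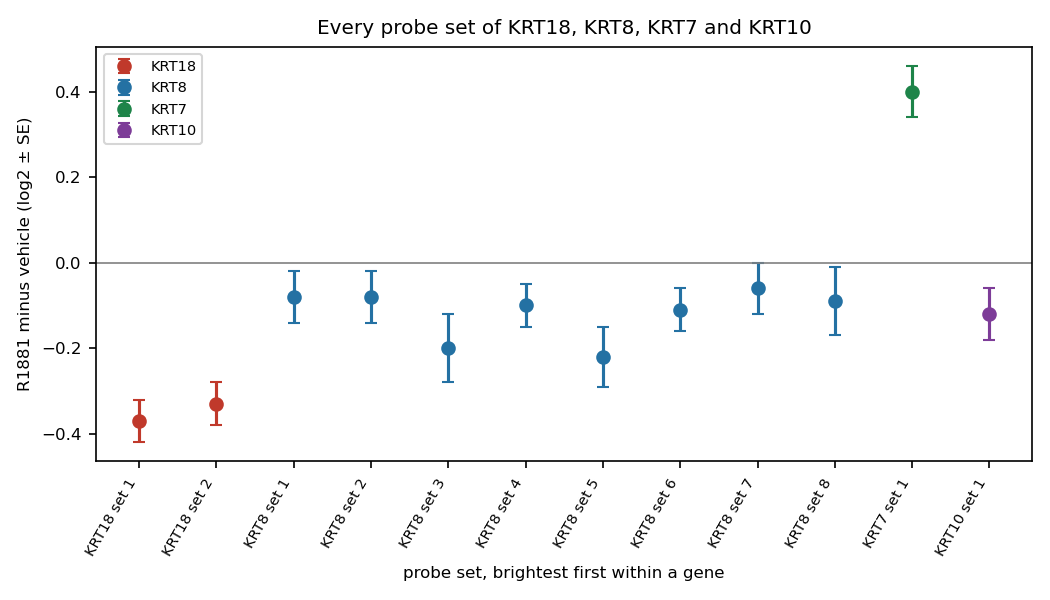
Change with R1881 (R1881 minus vehicle, log2, with the SE of the limma fit as bars) for every probe set of KRT18, KRT8, KRT7 and KRT10, brightest set first within a gene. Both KRT18 sets lie near -0.35, the 8 KRT8 sets between -0.22 and -0.06, and the KRT7 set at 0.40.

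KRT7, a type II keratin of ducts and urothelium, went the other way. Its log2 levels were 5.89, 5.86 and 5.74 in R1881 arrays, against 5.35, 5.47 and 5.47 in vehicle arrays, so the groups did not overlap. The change was 0.40 ± 0.06 (SE; limma adjusted p = 0.0192), with a 95% interval of 1.20 to 1.46 for the fold. KRT7 has 1 probe set, its levels lay less than 1 log2 unit above the background line, and a fold there may understate the change in RNA. The call was lost without any array but R1881 replicate 3, with adjusted p of 0.0657 to 0.104, while the change stayed between 0.36 and 0.45 in the 6 leave-outs. By size it ranked 193rd of the 290 genes that rose. On the brightest sets, KRT7 minus KRT18 differed between the groups by 0.77 and KRT7 minus KRT8 by 0.48. Neither difference overlapped between the groups, and each had an exact p of 0.10 by permutation. With KRT18 minus KRT10 this made 4 such differences, whose adjusted p was 0.10 throughout. All 4 pairs were chosen after the values were seen, and each holds a gene already called. KRT7 and KRT18 had separated in opposite directions, which alone fixes the lack of overlap of their difference. These exact p-values therefore add no support to the calls. In RefSeq the pseudogene KRT87P overlaps KRT7. Its set, below background, read 3.96, 4.24 and 3.72 with R1881 and 3.66, 3.67 and 3.71 with vehicle (change 0.29 ± 0.12, SE; adjusted p = 0.336), groups that were 0.01 log2 apart at the nearest.

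The remaining simple keratins, KRT19 and KRT20, were not above background. KRT19, a type I keratin that can pair with KRT7 or KRT8, read 3.94, 4.12 and 4.13 with R1881 and 3.93, 3.85 and 3.73 with vehicle. The R1881 arrays were all higher, if by as little as 0.01 log2, and the change of 0.23 ± 0.07 (SE) did not pass (limma adjusted p = 0.236). KRT20, the umbrella cell keratin, read 3.57, 3.71 and 3.58 with R1881 and 3.58, 3.32 and 3.51 with vehicle, and its groups overlapped (adjusted p = 0.440).

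**Figure D3:**
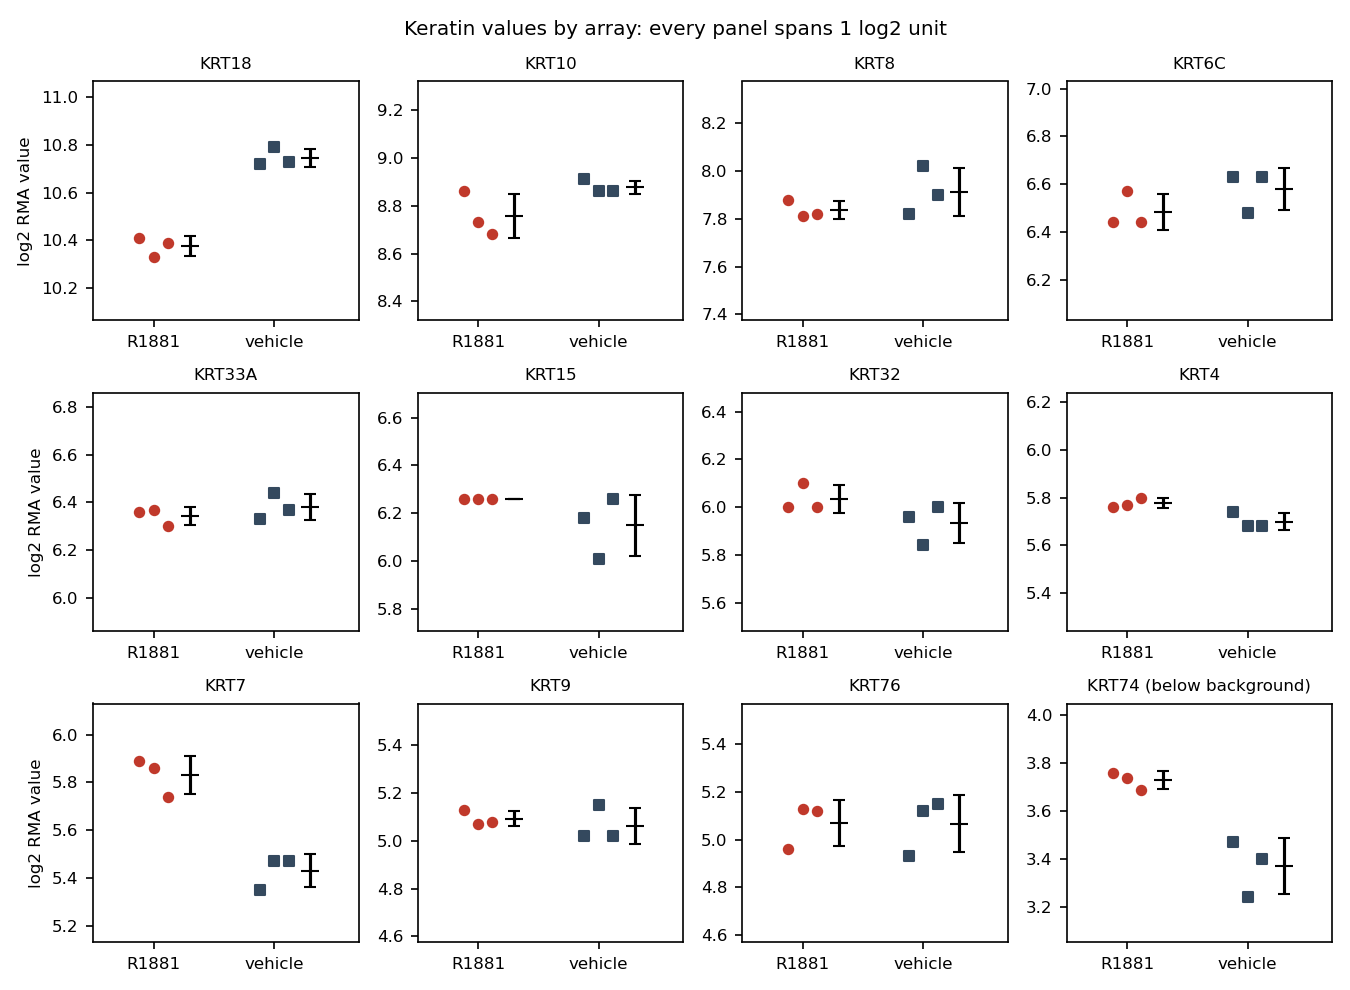
Log2 RMA value on each array with R1881 (circles) and vehicle (squares) for the 11 keratins above background and for KRT74, with mean and SD (n = 3) beside the points and panels that all span 1 log2 unit. The groups separate by more than the spread for KRT18 and KRT7. They do not overlap for KRT74, which lies below background, separate by a narrow margin for KRT4, and meet or overlap elsewhere.

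None of the 3 basal layer keratins passed the limma test, and none had an unadjusted p under 0.05. KRT15, a type I keratin of basal cells, was the only one of them above background, at 6.26 on all 3 R1881 arrays and at 6.18, 6.01 and 6.26 on the vehicle arrays (change 0.11 ± 0.07, SE; adjusted p = 0.509). The basal pair KRT5 and KRT14, which mark the basal type of bladder cancer, lay below background. KRT5 read 5.06, 4.55 and 4.69 with R1881 and 5.04, 4.69 and 4.59 with vehicle, and the first array of each group was the high one. Its change was -0.01 ± 0.16 (SE), an error shared by KRT26 and the widest in the family. KRT14 averaged 4.71 ± 0.10 with R1881 and 4.70 ± 0.01 with vehicle (SD, n = 3 each).

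Of the wound and stress keratins, which epidermis makes after injury, KRT6C and KRT75 had a probe set. KRT6C read 6.44, 6.57 and 6.44 with R1881 and 6.63, 6.48 and 6.63 with vehicle, with overlapping groups (change -0.10 ± 0.06, SE; limma adjusted p = 0.533). Its second set stood at 0.04 ± 0.08 (SE), opposite in sign. KRT6A and KRT6B are close copies of KRT6C, and whether their RNA reaches these probes was not tested. KRT75, of the companion layer of the hair follicle, lay below background with a change of 0.00 ± 0.04 (SE).

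No member of the 13 suprabasal and barrier keratins, made as epithelia stratify, passed the limma test, and 1 (KRT13) had an unadjusted p under 0.05. KRT10, the partner of KRT1 in the upper epidermis, was the brightest of them, with 8.86, 8.73 and 8.68 in R1881 arrays against 8.91, 8.86 and 8.86 in vehicle arrays. The groups met at 8.86, and the change of -0.12 ± 0.06 (SE) had an adjusted p of 0.405. KRT1 itself was below background, at 3.63 ± 0.08 with R1881 and 3.70 ± 0.10 with vehicle (SD, n = 3 each). KRT4, of mucosal epithelia, read 5.76, 5.77 and 5.80 with R1881 and 5.74, 5.68 and 5.68 with vehicle. Those groups did not overlap, yet the change was 0.08 ± 0.04 (SE; limma adjusted p = 0.466). The second KRT4 set had a change of 0.02 and lay below background, at 4.38 with R1881 and 4.37 with vehicle. KRT13, the mucosal partner of KRT4, was below background, at 3.44, 3.46 and 3.47 with R1881 and at 3.6 on all 3 vehicle arrays (adjusted p = 0.155). KRT9, of palms and soles, and KRT76, of the hard palate, had means within 0.10 log2 of the background line in both groups. Their changes were 0.03 ± 0.05 and 0.00 ± 0.08 (SE). The second KRT9 set averaged 3.30 with R1881 and 3.46 with vehicle, below the line.

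Hair keratins were mostly at background. None of the 8 inner root sheath keratins and 2 of the 13 measured hair shaft keratins were above it. KRT74, of the inner root sheath, read 3.76, 3.74 and 3.69 with R1881 and 3.47, 3.24 and 3.40 with vehicle. The R1881 arrays were all higher and the test was passed (change 0.36 ± 0.07, SE; limma adjusted p = 0.0433), but both groups were far below the background level, so no fold is given, and the call was lost without any 1 of the 6 arrays (0.0530 to 0.166). Its neighbours KRT71 and KRT72 had changes of 0.00 and -0.02. Of the hair shaft keratins, KRT33A read 6.36, 6.37 and 6.30 with R1881 and 6.33, 6.44 and 6.37 with vehicle, with overlapping groups. Its brightest set is of the s kind, which can match several transcripts. Its other set lay below the background level, at 4.81 ± 0.04 with R1881 and 4.93 ± 0.06 with vehicle (SD, n = 3 each). KRT32 read 6.0, 6.10 and 6.0 with R1881 and 5.96, 5.84 and 6.0 with vehicle, groups that met at 6.0 (change 0.10 ± 0.06, SE; adjusted p = 0.490).

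**Figure D4:**
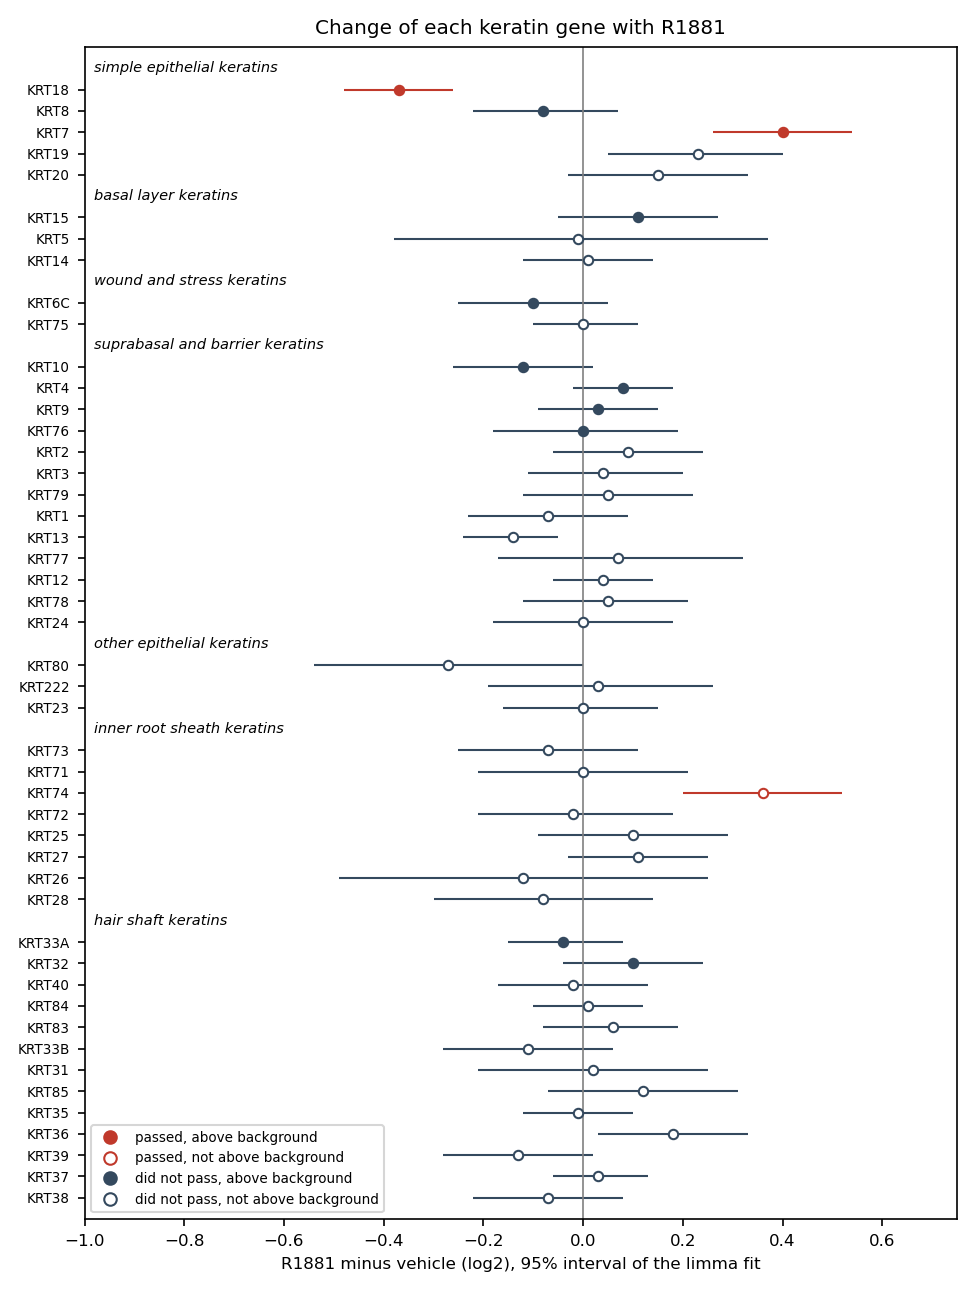
Change of each of the 47 keratins with R1881 (R1881 minus vehicle, log2) with its 95% interval, grouped by role. Red marks keratins that passed the test and filled points those above background: KRT18 and KRT7 are both, KRT74 is an open point, and the other 44 did not pass.

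In array values, the changes of keratins above background that did not pass were bounded closely. For these 9 genes the 95% intervals lay between a fold of 0.838 and of 1.21. Some of the 9 lay near the background line, with KRT9 and KRT76 only 0.08 and 0.07 log2 above it. A fold there may understate the change in RNA. For the 35 below background that did not pass, they lay between 0.686 and 1.32, and for these the values reflect background as well as RNA. The groups did not overlap for 7 of the 47 keratins (14.9%), against 18.5% of all genes, and for 3 of the 11 above background (27.3%), against 25.9% of all genes above it. An unadjusted p under 0.05 was reached by 7 keratins, namely KRT18, KRT7, KRT74, KRT13, KRT19, KRT36 and KRT80, beside 14.3% of all genes. These shares stand near those of the genes they are set beside. KRT80, which lies next to KRT7 in the genome, read 4.21, 4.43 and 4.69 with R1881 and 4.76, 4.73 and 4.66 with vehicle, below background (change -0.27 ± 0.11, SE; adjusted p = 0.342). The type I keratins had 1 call, KRT18, among 26 and a median change of 0.01, and the type II keratins 2 among 21 with a median of 0.01.

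The labelled cell type was set against defining markers, since keratins are read with them. The list of urothelial and epithelial markers held KRT5, KRT14 and KRT20 but not KRT18, KRT8 and KRT7, which were above background. Of its 14 measured genes 4 were above background (UPK3B, UPK1A, GATA3 and FOXA1), and the highest, the uroplakin UPK3B, averaged 5.35 with R1881 and 5.34 with vehicle. EPCAM and CDH1, adhesion molecules that define epithelia, were among the lowest. CDH1, E-cadherin, read 2.90, 3.09 and 3.14 with R1881 and 3.27, 3.05 and 3.18 with vehicle. All 7 mesenchymal markers were above background, led by VIM, the intermediate filament protein of mesenchymal cells, at 14.06 ± 0.05 with R1881 and 14.10 ± 0.10 with vehicle (SD, n = 3 each). SNAI2, the transcription factor Slug, was the 1 member of either marker list that passed (change 1.53 ± 0.06, SE; limma adjusted p = 7.42e-05). Its part in the keratin changes was not tested. The urothelial markers, summed on the linear scale, ran from 319 to 330 with R1881 and from 312 to 323 with vehicle. The mesenchymal ones ran from 18447 to 19395 with R1881 and from 18236 to 20274 with vehicle. VIM makes up most of the mesenchymal sums, which say little of SNAI2 or the other members. Most of the urothelial markers summed were not above background. None of 9 fibroblast markers passed by limma (1 had an unadjusted p under 0.05), and their sums ran from 592 to 615 with R1881 and from 557 to 571 with vehicle. Of 10 immune and endothelial markers 1 passed, TEK (change 1.28 ± 0.14, SE, with a limma adjusted p of 0.0055). TEK averaged 5.0 with R1881, which reached the background line but did not count as above it, and 3.72 with vehicle. The sums of these 10 markers ran from 568 to 645 with R1881 and from 587 to 687 with vehicle.

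**Figure D5:**
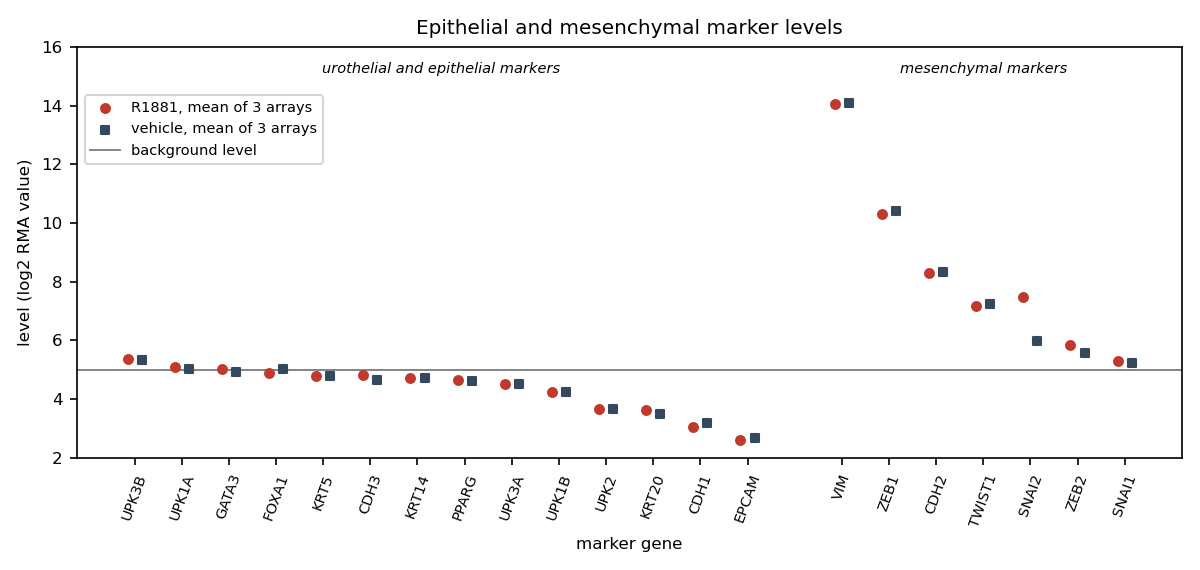
Mean level (log2 RMA value) of 14 urothelial and epithelial markers and 7 mesenchymal markers with R1881 (circles) and vehicle (squares), 3 arrays each, with the background level as a line. The epithelial markers plotted, which leave out KRT18, KRT8 and KRT7, lie below the line or, for 4 of them, just above it, the mesenchymal ones lie above it, and SNAI2 alone differs between the groups by over 1 log2 unit.

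Of 16 other intermediate filament genes none passed the limma test and 1 had an unadjusted p under 0.05. That was SYNC, syncoilin, at 6.49, 6.51 and 6.66 with R1881 and 6.74, 6.71 and 6.80 with vehicle (change -0.20 ± 0.06, SE; adjusted p = 0.196). LMNB1, lamin B1, stood at -0.14 ± 0.06 (SE; adjusted p = 0.381). The median change of these 16 was -0.01. Of 14 linkers of keratin filaments, such as plakins and plakophilins, none passed, 1 had an unadjusted p under 0.05, and the median was 0.02. The desmosomal anchor DSP was below background, at 3.71 ± 0.05 with R1881 and 3.79 ± 0.06 with vehicle (SD, n = 3 each), while PLEC, plectin, was at 11.34 ± 0.08 and 11.27 ± 0.27 in those groups. TCHP, trichoplein, a keratin-binding protein, had the smallest p (-0.18 ± 0.07, SE; adjusted p = 0.327), followed by PKP3, a plakophilin (0.10 ± 0.06, SE; 0.461).

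Only 3 of 20 measured genes of the cornified envelope, the protein shell of terminally differentiated keratinocytes, were above background. None passed by limma, 1 had an unadjusted p under 0.05, and the median was 0.04. Those above background with the smallest p were CNFN (-0.12 ± 0.11, SE; adjusted p = 0.640) and SPRR1A (0.25 ± 0.22, SE; 0.646). Among 24 measured regulators of keratin genes, whose median change was 0.03, 1 rose and 23 did not pass, beside 2.42% of all genes that passed. An unadjusted p under 0.05 was reached by 5 of the 24, beside 14.3% of all genes. Among them was CEBPB, a transcription factor, at 10.41, 10.48 and 10.45 with R1881 and 9.91, 10.16 and 10.17 with vehicle, which did not pass (change 0.37 ± 0.08, SE; limma adjusted p = 0.0690). The gene that rose was NR3C1, the glucocorticoid receptor, which can act on keratin genes in keratinocytes. It read 10.61, 10.62 and 10.69 with R1881 and 10.34, 10.39 and 10.43 with vehicle (change 0.25 ± 0.05, SE; adjusted p = 0.0462), a call lost without any 1 of the 6 arrays (0.111 to 0.148). TP63 was not analysed here.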

How the data were processed

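The values the authors deposited are log2 intensities, 1 for each probe set on each array, from RMA per the submitters' processing notes (version and filters not given in the sources used here). RMA removes a shift common to all genes, and values are rounded to 2 decimals. Of 49193 probe sets, 44898 had 1 gene symbol in the platform annotation, 1825 several and 2470 none. Only the first entered the tests, with 1 set per gene. All 47 keratins matched RefSeq (GRCh38.p14) by Entrez identifier. RefSeq was used for biotype and neighbours.

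R1881 was compared with vehicle over all 18129 genes with limma 3.58.1 in R 4.3.3 (lmFit, eBayes, no trend, no filter), two-sided, adjusted by Benjamini-Hochberg over all genes, threshold 0.05. SE and 95% intervals are those of the moderated fit. Only 3 arrays per group limit the precision. On simulated arrays over 18129 genes the fit recovered 28% of changes of 0.3, 90% of 0.4 and 92% of 0.5 on the log2 scale. Noise was independent between genes. Changes were planted only in genes above background, so these shares do not cover keratins below it. On the second principal component the first array of each group stood apart on the same side. The first R1881 array stood at 5.69, against -0.667 and -0.872 for the other R1881 arrays. The first vehicle array stood at 11.0, against -8.21 and -6.99 for the other vehicle arrays. Each leave-out drops only 1 array, so it does not cover a shift that both first arrays share. The fit with a replicate block, under which no keratin passed, allows for such a shift.

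Keratins above background were named, and those below that passed. Of other lists, members that passed were named, or else the 2 above background with the smallest p. Others named were chosen after their values were seen. Members, lists and tests were chosen with earlier results of these data known. The sets with several symbols for KRT16 and KRT34 were left out.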

Additional observations from a re-analysis of the deposited data

How the results depend on the processing

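The count of 3 changed keratins was 2 or 3 under another quantile normalization, median centring, array weights and a trended robust prior. It was also 2 or 3 with a filter on dim genes and other rules for several probe sets. KRT7 and KRT74 have 1 set each, so those rules leave their values as they were. Both KRT18 sets are of the x kind, so cross-matching at KRT18 was not tested. With any 1 array left out the count was 1 to 2. KRT18 was the 1 call left without R1881 replicate 1 or 2 or any vehicle array, and KRT7 remained beside it without R1881 replicate 3. With a replicate block none passed by limma (0 keratins, 6 at an unadjusted p under 0.05, KRT18 with an adjusted p of 0.0644). The labels do not say whether replicate numbers pair the arrays. Correlations of same-numbered deviations were low (0.09, 0.06 and 0.03), if the highest for each R1881 array, so pairing was not settled. The block fit has fewer degrees of freedom. The 1 changed gene among filament partners, linkers, envelope genes and regulators became 2 with the filter on dim genes or the trended prior (CEBPB joined NR3C1), and 0 with median centring, a replicate block, every probe set tested or any 1 array left out (9, 13, 8 and 6 to 10 of 74 at an unadjusted p under 0.05). The calls over all genes, 438 as reported, were 759 with the filter on dim genes, 895 with the trended prior, 222 with the block and 209 to 270 with 1 array left out. The count of 11 keratins above background was 23 at the 75th percentile, 7 at the 95th and 17 with olfactory receptor genes alone. KRT9 turned to -0.06 with the mean of its probe sets and SPRR1A to -0.01 on sets without s or x, neither passing. Over genes named by the rule, 26 recomputed values lost the call and none gained it, and KRT76, with a change of 0.00 as reported, lay between -0.06 and 0.06. Signal over background limits the 36 keratins below the line.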

Other observations

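The set listed for KRT16 and 3 of its pseudogenes read 2.83, 2.84 and 2.98 with R1881 and 2.74, 2.81 and 2.83 with vehicle. The set listed for KRT34 and another locus read 4.48, 4.55 and 4.48 with R1881 and 4.45, 4.48 and 4.45 with vehicle. Both lay below the background level. Among transcribed loci of the family that encode no keratin, KRT10-AS1, an antisense RNA at KRT10, read 7.48, 7.52 and 7.52 with R1881 and 7.67, 7.5 and 7.55 with vehicle, and KRT16P1 read 6.2, 6.44 and 6.37 with R1881 and 6.36, 6.28 and 6.28 with vehicle. KRT18P55, a transcribed KRT18 pseudogene, read 4.84, 4.98 and 4.95 with R1881 and 5.1, 4.87 and 5.18 with vehicle. None of these passed by limma, and the groups overlapped or met for each.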
